A study of Mus musculus with 25 samples.

Results

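The nuclear genes for the protein subunits of the respiratory chain and of the ATP synthase were followed in retinas of mice that had received AA147, Ceapin-A7, tunicamycin or vehicle into the eye. Members were taken by gene symbol: Nduf genes for complex I, Sdha to Sdhd for complex II, Uqcr genes for complex III, Cox4 to Cox8 genes for complex IV and Atp5 genes for the ATP synthase, here called complex V. Of 85 genes with such a symbol in all 5 tables, 83 reached at least 1 FPKM (a read level corrected for transcript length and for library depth) in at least 5 libraries, and they stood among 13117 genes tested. Complex I had 40 members, complex II 4, complex III 8, complex IV 14 and complex V 17. Cox7b2 and Ndufs6b matched by symbol but stayed under the FPKM limit. The symbol patterns left out a few true subunits (Ndufab1, Cyc1, Cox4i1 and Cox4i2), which are described with the related genes. The 5 tables held 0 mitochondrially encoded genes, so the subunits made from mitochondrial DNA were not analysed here.

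Complexes I to IV pass electrons from NADH and succinate to oxygen. Complexes I, III and IV also pump protons across the inner mitochondrial membrane, and complex V uses the returning protons to make ATP. Most subunits are encoded in the nucleus, are made in the cytosol and are imported, while a core of each complex except complex II is made inside the mitochondrion. The retina is among the tissues with the highest use of oxygen, and rods and cones hold dense stacks of mitochondria in their inner segments.

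The study injected wild-type C57BL/6J mice in the vitreous of both eyes at postnatal day 30 and sequenced RNA of the whole retina after removal of cornea and lens. AA147 is described by the submitters as an activator of ATF6, a sensor of stress in the endoplasmic reticulum (ER), Ceapin-A7 as an inhibitor of ATF6, and tunicamycin, an antibiotic that blocks N-linked glycosylation, as a positive control. The injected volume was 1 µL of saline with 0.05 to 0.1% DMSO, which held the compound at a concentration of 10 µM or, by the protocol, nothing more in vehicle eyes, although the vehicle libraries bear the treatment label PBS. There were 5 libraries of each group: AA147, vehicle set 1, tunicamycin, Ceapin-A7 and vehicle set 2. Vehicle set 1 shares its gene list with AA147, and vehicle set 2 shares its list with tunicamycin and Ceapin-A7, so each compound was compared with the vehicle set of its own list. A time of 24 h is written in the column headers of AA147, Ceapin-A7 and tunicamycin but not in the vehicle headers, and the series names collection at 24 h, 3 days and 7 days. Compound and any difference in collection time therefore cannot be told apart. Whether the libraries within a group are from different animals is not labelled, and p-values then reflect only library-to-library spread, possibly technical. Depth was estimated from the FPKM steps of 2065 single-transcript genes at 15.2 to 25.2 M fragments per library. Rod markers were high in every group (summed level of 14 genes 19420 to 31060 FPKM over the 25 libraries), as a retina should show, and the lens markers varied most, with Cryaa, the major lens crystallin, between 0.97 and 6234 FPKM.

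Many nuclear respiratory genes carry sites for NRF1 (nuclear respiratory factor 1), an activator of mitochondrial genes, or for ETS-family factors such as GABPA, and the promoters are shown because the members moved together between libraries. RefSeq promoters of GRCm38.p6 were matched for 69 of the 83 members, and the 250 bases before each start were searched on both strands. The NRF1 letters, GCGCA and GCGC with 1 free base between them, stood in 13 of the 69 promoters (18.8%), against 9.08% of the 10447 promoters of genes tested and 4.23% of all 27025. The ETS letters CCGGAAG stood in 12 (17.4%), against 14.9% of the genes tested and 7.83% of all promoters. YY1 letters AAGATGGC stood in 1 (1.45%), against 2.27% and 1.83%. A composite ATF4 site (TGATGNAAT) and the ER stress element (CCAAT and CCACG with 9 free bases between them) stood in 0 of the 69, against 0.469% and 0.172% of the genes tested and 0.91% and 0.13% of all promoters. The 150 bases before the start of 4 members are printed 5′ to 3′ on the gene's strand with matches in capitals. Atp5h, Ndufs6 and Sdha were picked for having NRF1 letters and lower levels in tunicamycin than in Ceapin-A7, and Cox8b was added. They do not stand for the 69 promoters. Atp5h (complex V) has an NRF1 and an ETS match, Ndufs6 (complex I) an NRF1 match near the start, Sdha (complex II) NRF1 matches at 3 positions, and Cox8b (complex IV, a muscle-type isoform) no match. All 4 are minus-strand genes at chr11:115419920-115420069, chr13:73328483-73328632, chr13:74350241-74350390 and chr7:140900447-140900596, in the order listed.
Atp5h: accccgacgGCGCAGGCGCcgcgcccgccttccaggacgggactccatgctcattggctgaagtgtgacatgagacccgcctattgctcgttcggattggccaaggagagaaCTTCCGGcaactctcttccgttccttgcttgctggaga
Ndufs6: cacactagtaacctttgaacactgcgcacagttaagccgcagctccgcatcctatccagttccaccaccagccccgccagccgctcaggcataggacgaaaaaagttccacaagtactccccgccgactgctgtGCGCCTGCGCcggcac
Sdha: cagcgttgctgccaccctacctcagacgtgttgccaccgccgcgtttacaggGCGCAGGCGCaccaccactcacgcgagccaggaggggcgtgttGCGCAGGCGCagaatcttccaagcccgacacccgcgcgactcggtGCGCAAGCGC
Cox8b: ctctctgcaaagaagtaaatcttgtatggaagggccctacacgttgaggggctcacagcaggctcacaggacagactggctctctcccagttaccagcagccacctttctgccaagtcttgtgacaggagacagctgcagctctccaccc

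The subunit genes were abundant and uneven in level. The median member averaged 137.2 FPKM over the 25 libraries, against 12.44 FPKM for the median gene tested, and 53 members averaged at least 100 FPKM, a level that 5.1% of the genes tested reached. Atp5b, the catalytic beta subunit of the ATP synthase, was highest with a mean of 637.4 FPKM. Complex I made up a median 33.8% of the summed member FPKM, complex V 33.7%, complex IV 20.9%, complex III 8.996% and complex II 2.37%. These shares follow the gene symbols. Ndufa4 (mean 597 FPKM), found in complex IV, is counted in complex I, and Cox4i1 (group means 428 to 552 FPKM) is left out of complex IV. The share of complex I is thus overstated and that of complex IV understated. Only 7 members averaged under 20 FPKM, and these included isoforms restricted to other tissues (Cox6a2, Cox7a1 and Cox8b of muscle) and Ndufb4b, a copy of Ndufb4 with the lowest mean, 0.679 FPKM. FPKM is per length, so these levels can be set side by side, but reads of near-identical copies (Ndufb4, Ndufb4b and Ndufb4c) may have been divided among them in counting, and values of those 3 genes are uncertain.

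The common forms of complex IV subunits far exceeded their muscle forms. Cox8a, the common form of subunit VIII, ranged from 357 to 505 FPKM in the AA147 and vehicle set 1 libraries, while Cox8b did not pass 21.0 FPKM there. Ndufa4, placed in complex I by its name but found in complex IV in mammals, ranged from 410 FPKM in tunicamycin library 1 to 755 FPKM in Ceapin-A7 library 2. Its relative Ndufa4l2, a hypoxia-induced gene of pericytes, lay between 1.58 and 5.80 FPKM over all libraries.

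No difference in subunit genes was detected between AA147 and vehicle set 1. The summed member FPKM was 12840, 13510, 13150, 12140 and 12330 in the 5 AA147 libraries, against 12780, 12620, 12430, 13140 and 12610 in vehicle set 1. The groups overlapped, with means of 12790 ± 565 in AA147 and 12720 ± 267 in vehicle set 1 (SD, n = 5 each). Of the 83 members, 0 passed the test (limma on log2(FPKM + 1) with Benjamini-Hochberg adjustment over all genes, adjusted p under 0.05), and the background was the same, 0% of genes tested. At an unadjusted p under 0.05 there was 1 member, Cox7a1, which was higher (1.2% of members), against 1.88% of genes tested (1.11% higher). The median log2 change of the members was 0.01, equal to the 0.01 of all genes tested, and 45 of 83 lay above 0 (54.2%, against 57.1% of genes tested).

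The member with the smallest p was Cox7a1, a subunit isoform of heart and skeletal muscle. It had 5.62, 8.76, 7.56, 5.21 and 6.81 FPKM in AA147 libraries, against 5.60, 3.00, 4.12, 6.54 and 3.24 FPKM in vehicle set 1. The ranges overlapped, and the log2 change of 0.53 ± 0.19 (SE) had an adjusted p of 1.00 in limma. Ndufa6, an accessory subunit of complex I, came next with 85.9, 97.7, 102, 88.5 and 102 FPKM in AA147 against 83.4, 75.1, 94.0, 96.7 and 86.1 FPKM in vehicle set 1, a log2 change of 0.13 ± 0.07. Atp5b averaged 648 ± 30.3 FPKM in AA147 and 656 ± 22.9 FPKM in vehicle set 1, and Sdha, the flavoprotein of complex II, 140.6 ± 2.87 FPKM in AA147 and 141.7 ± 2.72 FPKM in vehicle set 1 (SD, n = 5 each).

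**Figure D1:**
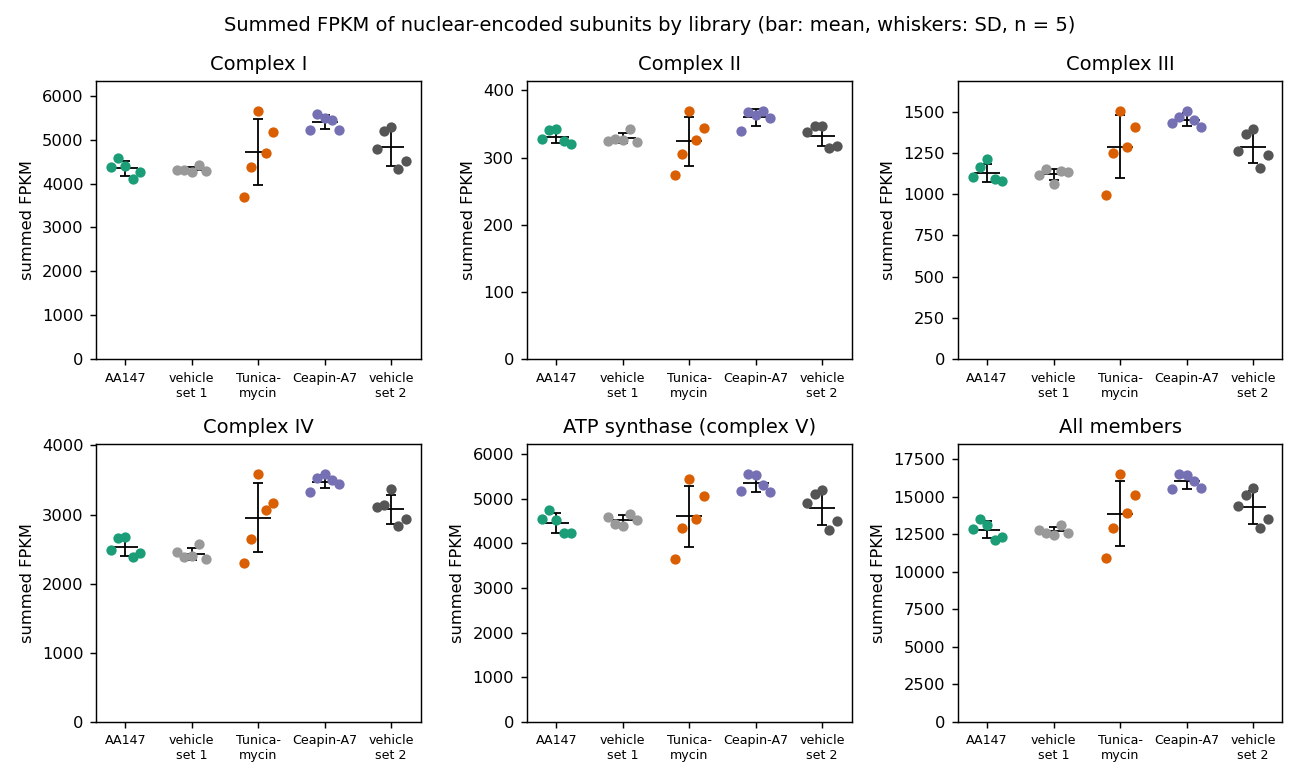
Summed FPKM of the member genes of each complex and of all 83 members (y axis, from 0) in the 5 groups (x axis); each point is a library, the horizontal bar the mean and the whiskers the SD of 5 libraries. AA147 and vehicle set 1 lie together, tunicamycin spreads most (10910 to 16560 FPKM for all members), and Ceapin-A7 libraries lie between 15500 and 16520 FPKM.

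Ceapin-A7 retinas had slightly higher levels over nearly all subunit genes than vehicle set 2, but no gene passed the test. The summed member FPKM was 15500, 16520, 16470, 16090 and 15590 in Ceapin-A7 libraries, against 14380, 15160, 15580, 12940 and 13500 in vehicle set 2. Vehicle libraries 4 and 5 were the lowest of that group, and vehicle library 3 reached into the Ceapin-A7 range. The log2 change lay above 0 in 82 of 83 members, against 49.8% of genes tested, with a median of 0.16, against 0.00 (just below 0) for all genes tested. The exception was Ndufb4b, at -0.33 ± 0.34 and near the FPKM limit. By complex the medians were 0.16 for complex I, 0.11 for complex II, 0.18 for complex III, 0.18 for complex IV and 0.17 for complex V.

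Among the members, 0 of 83 were called (background 0%). At an unadjusted p under 0.05 there were 31 members, all higher in Ceapin-A7 (37.3%), where 5.49% of genes tested were higher and 6.82% lower at that p. These were 14 genes of complex I, 2 of complex II, 3 of complex III, 5 of complex IV and 7 of complex V. In 8 members every Ceapin-A7 library lay above every vehicle set 2 library (9.64%, against 0.968% of genes tested), and in 0 members the reverse held (0.48% of genes tested). The 8 were Atp5md, Cox6b1, Cox7b, Cox7c, Ndufa5, Ndufa9, Ndufb4c and Sdhd. With vehicle libraries 4 and 5 left out, a choice made after the values were seen, the median was 0.09 and 76 of 83 lay above 0.

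Ndufa9, an accessory complex I subunit at the base of its peripheral arm, had the smallest p. It measured 79.3, 79.1, 87.5, 80.4 and 79.4 FPKM in Ceapin-A7, against 72.0, 75.0, 74.7, 69.4 and 63.9 FPKM in vehicle set 2. The groups did not overlap, and the log2 change was 0.19 ± 0.05 with an adjusted p of 0.304 (limma). Ndufs3, a core subunit of the same arm, had 75.8, 79.9, 79.7, 83.1 and 86.4 FPKM in Ceapin-A7, against 67.3, 76.9, 79.5, 65.4 and 71.7 FPKM in vehicle set 2, a log2 change of 0.17 ± 0.05. Ndufa5 averaged 163 ± 5.80 FPKM in Ceapin-A7 and 130 ± 18.1 FPKM in vehicle set 2 (SD, n = 5 each), a log2 change of 0.34 ± 0.11.

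Some cell type marker lists moved with the members and others did not. All 14 rod markers lay above 0 in Ceapin-A7 against vehicle set 2, with a median log2 change of 0.16 and 0 called. Median changes were 0.20 for cone markers (9 of 10 above 0), 0.17 for pericyte and smooth muscle (9 of 10), 0.17 for microglia (5 of 7), 0.21 for Muller glia (5 of 8) and 0.98 for lens (10 of 10), again with 0 called. Amacrine (-0.003, 4 of 8 above 0), ganglion cell (0.007, 5 of 8) and endothelial markers (-0.009, 5 of 10) had medians near 0. Bipolar markers had 0.07 (5 of 8), erythrocyte markers -0.07 (1 of 5) and pigment epithelium markers -0.39 (2 of 7). The summed rod level was 26870 to 29130 FPKM in Ceapin-A7, against 19420 to 29160 FPKM in vehicle set 2. Vehicle libraries 4 and 5 held the lowest rod sums, 20480 and 19420 FPKM. They also had the highest means of 13 ER stress genes in vehicle set 2. As log2(FPKM + 1) these were 5.088 and 5.184, against 4.585 to 4.639 in libraries 1 to 3. Whether the content of the cell types or the ER stress level accounts for any of the difference in subunit genes was not tested. In whole retina, fewer cells of a type and less RNA per cell cannot be told apart.

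**Figure D2:**
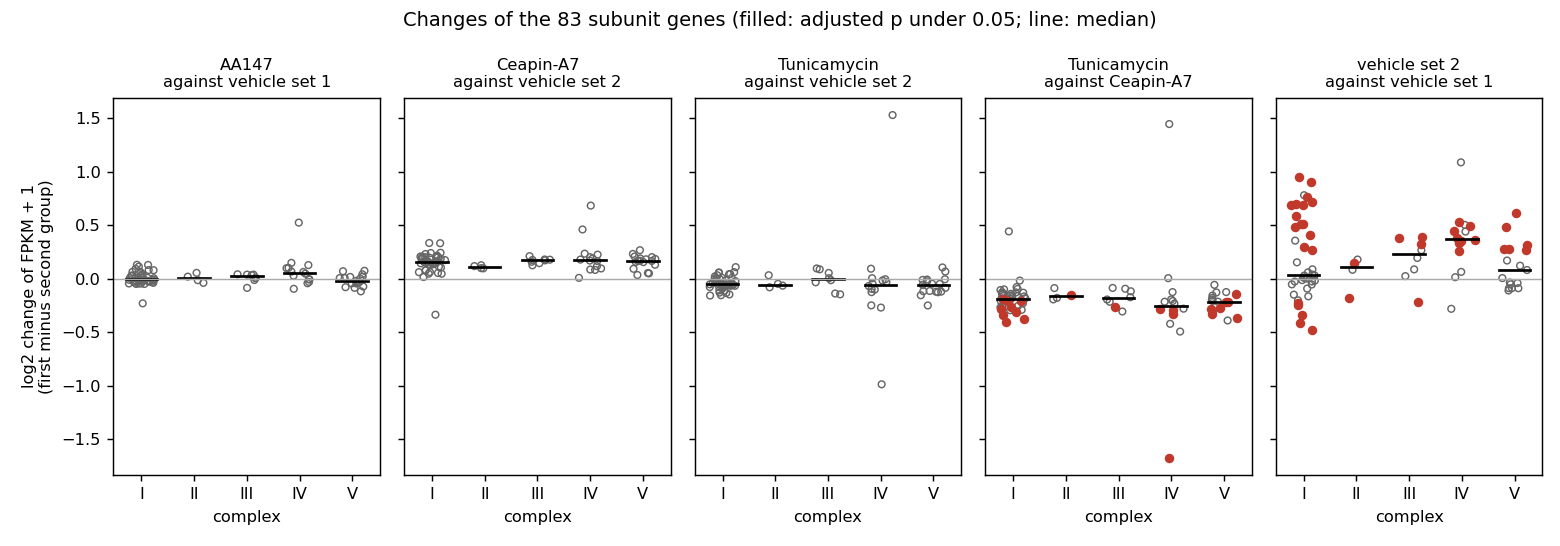
Log2 change of FPKM + 1 (y axis, group named first minus group named second) for each of the 83 members by complex (x axis) in 5 comparisons; filled points passed an adjusted p under 0.05 and bars are medians. No point is filled for a compound against its vehicle, 22 are filled for tunicamycin against Ceapin-A7, all below 0, and 39 for vehicle set 2 against vehicle set 1.

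In tunicamycin retinas 12 of 13 ER stress genes were higher than in vehicle set 2, but no subunit gene passed the test. The summed member FPKM was 10910, 12930, 16560, 13910 and 15140 in the 5 tunicamycin libraries, against 14380, 15160, 15580, 12940 and 13500 in vehicle set 2. Tunicamycin held both the lowest and the highest library of this pair of groups, so its SD was 2149 FPKM around a mean of 13890, against 1106 around 14310 in vehicle set 2. Of the 83 members, 0 were called, where 8.7% of the genes tested passed (5.89% higher and 2.81% lower, a split that became 581 higher and 558 lower genes with median-ratio scaling, against 773 and 368 as reported). At an unadjusted p under 0.05 there were 3 members (3.61%), Cox6a2 higher and Cox8b and Atp5mpl lower, against 24.6% of genes tested (15% higher and 9.64% lower). The median log2 change was -0.05, against 0.01 for all genes tested, and 21 of 83 lay above 0 (25.3%, against 54.4% of genes tested).

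This median depended on single libraries. Without tunicamycin library 1 it was 0.03, with 53 members above 0, and without library 3 it was -0.10, with 12 above 0. In the fit without library 3, 4 of the 83 members and 1985 of the 13117 genes tested were called. Those 4 were Cox6a2, which rose, and Cox6c, Ndufb10 and Ndufc2, which fell. Without vehicle libraries 4 and 5 it was -0.10, with 5 above 0.

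The catalytic and core subunits overlapped with the vehicle libraries. Atp5b had 490, 568, 634, 595 and 642 FPKM in tunicamycin, against 635, 630, 677, 576 and 576 FPKM in vehicle set 2. Library 1 of tunicamycin was lowest and the other tunicamycin libraries overlapped with vehicle, with a log2 change of -0.08 ± 0.06 and an adjusted p of 0.436 (limma). Ndufs1, the largest core subunit of complex I, averaged 41.4 ± 3.26 FPKM in tunicamycin and 42.9 ± 2.98 FPKM in vehicle set 2. Cox5a, a matrix-side subunit of complex IV, averaged 184 ± 22.6 FPKM in tunicamycin and 183 ± 13.3 FPKM in vehicle set 2, and Uqcrfs1, the Rieske iron-sulfur protein of complex III, 71.8 ± 9.62 FPKM in tunicamycin and 72.1 ± 6.94 FPKM in vehicle set 2 (SD, n = 5 each). Uqcrc1, a core protein of complex III, averaged 99.1 ± 9.80 FPKM in tunicamycin and 109 ± 8.38 FPKM in vehicle set 2, a log2 change of -0.14 ± 0.07 with an adjusted p of 0.23 (limma). Cox7a2l, which helps to join complexes III and IV into supercomplexes, averaged 165 ± 7.50 FPKM in tunicamycin and 155 ± 13.97 FPKM in vehicle set 2, a log2 change of 0.10 ± 0.06.

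The members kept a common order of libraries within the tunicamycin group. Library 1 was the lowest of the 5 in 72 of 83 members (86.7%), against 36.0% of genes tested, and library 3 was the highest in 65 (78.3%), against 29.2%. The mean log2(FPKM + 1) of the members was 6.52, 6.73, 7.02, 6.85 and 6.92 in libraries 1 to 5. For the 13 ER stress genes the same mean was 8.01, 6.66, 5.41, 6.73 and 6.28. The library with the highest ER stress level thus had the lowest subunit level and the library with the lowest ER stress level the highest, while the other 3 libraries lay between on both. Hspa5, the main ER chaperone, had 1513, 495, 229, 581 and 427 FPKM in these libraries. The mean of the 14 rod markers was 9.68, 9.97, 9.91, 9.82 and 9.93, also lowest in library 1, and the cone, bipolar, amacrine, ganglion cell and Muller glia means were each lowest in library 1 and highest in library 3, as the members' mean was. The cone mean was 5.86 in library 1 and 6.36 in library 3, and the Muller glia mean 6.09 and 6.70. Summed lens markers were 15660, 7119, 75.4, 218 and 6778 FPKM, highest in library 1 and lowest in library 3. The part of cell type content, lens tissue or stress level in this order was not tested. In vehicle set 2, library 4 was the lowest in 51 members (61.4%, against 14.3% of genes tested) and library 3 the highest in 44 (53.0%, against 13.9%). The member means there were 6.723 and 6.759 in libraries 4 and 5, against 6.852 to 6.955 in libraries 1 to 3. Libraries 4 and 5 also had the highest ER stress means of that group, as given above.

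**Figure D3:**
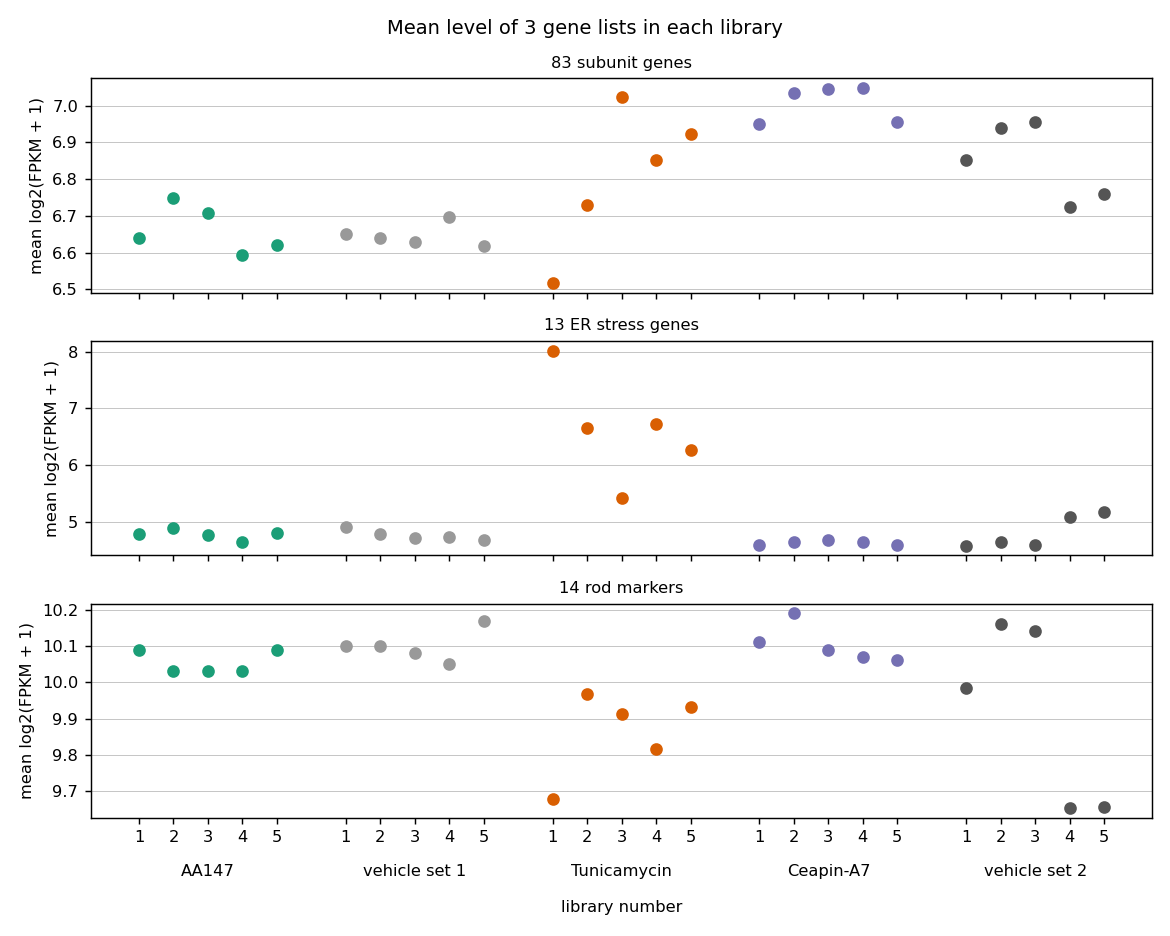
Mean log2(FPKM + 1) of the 83 members (top), 13 ER stress genes (middle) and 14 rod markers (bottom) in each library (x axis, library numbers within groups; the y axes differ and do not start at 0). Tunicamycin library 1 is highest for ER stress genes (8.01) and lowest for members (6.52), and library 3 is lowest for ER stress genes in that group (5.41) and highest for members (7.02).

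**Figure D4:**
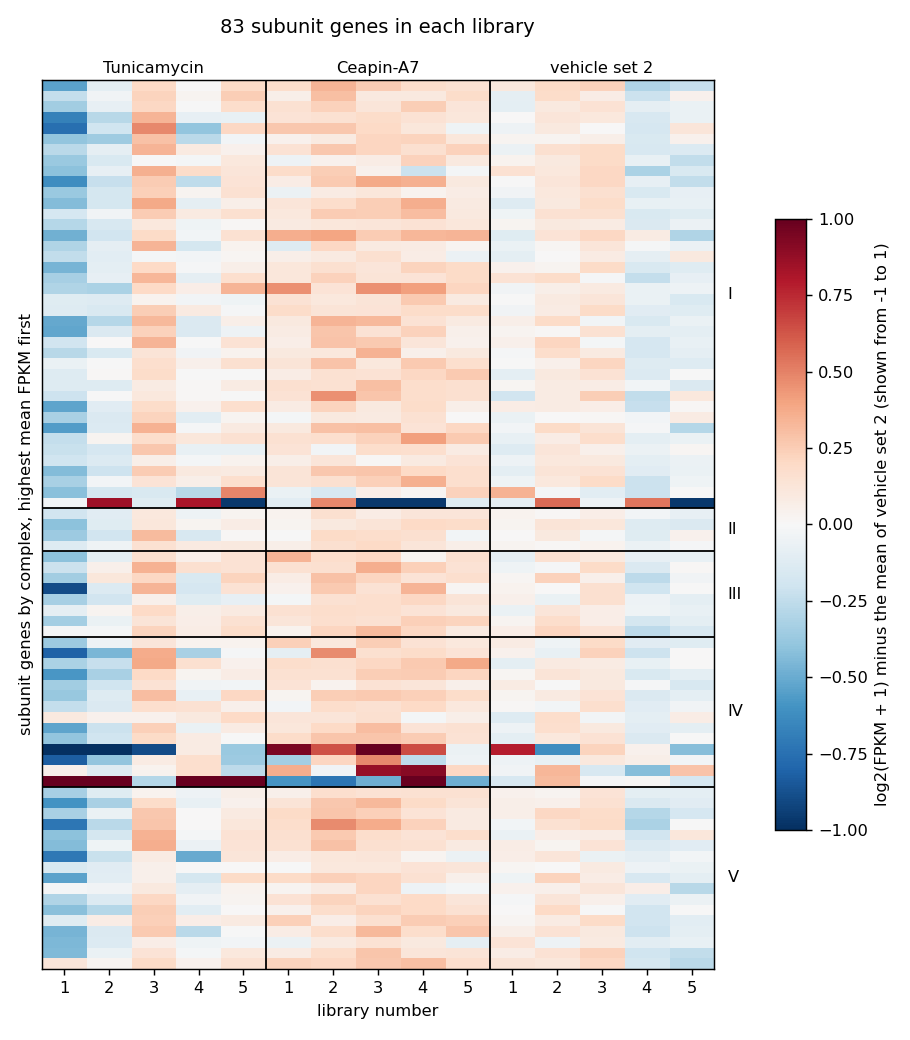
Log2(FPKM + 1) of each member (rows, grouped by complex, the highest mean FPKM on top in each) in each tunicamycin, Ceapin-A7 and vehicle set 2 library (columns), minus the mean of vehicle set 2; red is higher, blue is lower, and colours stop at -1 and 1. Tunicamycin library 1 is blue over most rows, library 3 and the Ceapin-A7 libraries are red over most rows.

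Set directly against Ceapin-A7 at the same dose and the same 24 h mark, tunicamycin retinas had lower levels of 22 subunit genes. These 22 of 83 members were lower and 0 were higher (26.5% of members), where 13.3% of genes tested were called, 4.48% lower and 8.83% higher. The median log2 change was -0.20, against 0.01 for all genes tested, and 3 members lay above 0 (Cox6a2, Cox7a2l and Ndufb4b). Against vehicle set 2 the member medians were -0.05 for tunicamycin and 0.16 for Ceapin-A7. A lower level here is thus relative to Ceapin-A7 and is not by itself a fall from vehicle. The split of all genes was 1158 higher and 588 lower, and 824 and 721 with quantile normalization, which left 17 members called, all lower. The summed member FPKM averaged 13890 ± 2149 in tunicamycin and 16040 ± 478 in Ceapin-A7 (SD, n = 5 each), and tunicamycin library 3 lay above every Ceapin-A7 library.

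All complexes were among the 22. Complex I had 9 of 40 lower, among them the core members Ndufs7 and Ndufv1 and 6 of its 33 accessory members (Ndufa5, Ndufa9, Ndufa12, Ndufb4c, Ndufc1 and Ndufs6). Complex II had 1 of 4 (Sdha), complex III 1 of 8 (Uqcrc1), complex IV 4 of 14 (Cox6b1, Cox7a2, Cox7b and Cox8b) and complex V 7 of 17 (Atp5a1, Atp5b, Atp5e, Atp5g3, Atp5h, Atp5j and Atp5pb). In 4 members every tunicamycin library lay below every Ceapin-A7 library (4.82%, against 2.74% of genes tested): Ndufa5, Ndufa9, Ndufa12 and Ndufv1.

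Ndufv1, the core subunit that binds NADH and FMN, had the smallest adjusted p. It measured 93.8, 93.2, 105, 100 and 99.2 FPKM in tunicamycin, against 113, 110, 111, 123 and 109 FPKM in Ceapin-A7. The groups did not overlap, and the log2 change was -0.20 ± 0.05 with an adjusted p of 0.00851 (limma). Vehicle set 2, with 102, 109, 111, 97.6 and 92.0 FPKM, overlapped both groups. Ndufa9 measured 64.8, 64.6, 75.1, 71.3 and 75.2 FPKM in tunicamycin, all below the Ceapin-A7 values given above, with a log2 change of -0.21 ± 0.05 and an adjusted p of 0.0111 (limma).

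Ndufa5, an accessory subunit next to the quinone-reducing module of complex I, had the largest difference among the 22 called members after Cox8b. Its mean was 124 ± 22.7 FPKM in tunicamycin, 130 ± 18.1 FPKM in vehicle set 2 and 163 ± 5.80 FPKM in Ceapin-A7. It measured 92.1, 112, 147, 126 and 143 FPKM in tunicamycin, against 165, 169, 154, 162 and 163 FPKM in Ceapin-A7. Every Ceapin-A7 library was above every tunicamycin library, most widely for library 1, and the log2 change was -0.41 ± 0.11 with an adjusted p of 0.0154 (limma). Ndufc1, a small membrane-arm subunit, averaged 140 ± 33.1 FPKM in tunicamycin and 179 ± 17.7 FPKM in Ceapin-A7 (log2 change -0.38 ± 0.12). Ndufs6, a zinc-binding accessory subunit, averaged 89.0 ± 20.2 FPKM in tunicamycin and 109 ± 9.43 FPKM in Ceapin-A7, and Ndufs7, a core iron-sulfur subunit, 78.2 ± 14.4 FPKM in tunicamycin and 94.3 ± 6.24 FPKM in Ceapin-A7.

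In complexes II and III, the called member was the flavoprotein Sdha and the core protein Uqcrc1. Sdha measured 109, 115, 134, 120 and 128 FPKM in tunicamycin, against 128, 140, 131, 136 and 136 FPKM in Ceapin-A7. Only tunicamycin library 3 lay within the Ceapin-A7 range, and the log2 change was -0.15 ± 0.04 with an adjusted p of 0.0286 (limma). Uqcrc1 measured 85.9, 94.8, 112, 99.7 and 103 FPKM in tunicamycin, against 107, 121, 122, 126 and 119 FPKM in Ceapin-A7, a log2 change of -0.26 ± 0.07. Here too tunicamycin library 3 alone reached into the Ceapin-A7 range. Sdhb, the iron-sulfur subunit of complex II, did not pass, with 54.4 ± 10.3 FPKM in tunicamycin and 61.0 ± 4.54 FPKM in Ceapin-A7.

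In complex IV, Cox6b1, a subunit on the intermembrane side, measured 254, 304, 437, 388 and 401 FPKM in tunicamycin, against 423, 423, 453, 454 and 443 FPKM in Ceapin-A7. Tunicamycin library 3 lay within the Ceapin-A7 range and the other 4 below it, with a log2 change of -0.33 ± 0.10 and an adjusted p of 0.0332 (limma). Cox7b averaged 96.4 ± 15.4 FPKM in tunicamycin and 117 ± 4.86 FPKM in Ceapin-A7, and Cox7a2, the form of subunit VIIa used outside muscle, 135 ± 26.5 FPKM in tunicamycin and 162 ± 9.04 FPKM in Ceapin-A7. Cox6a1 (327 ± 41.9 FPKM in tunicamycin and 371 ± 13.5 FPKM in Ceapin-A7) and Cox8a (571 ± 70.3 FPKM in tunicamycin and 658 ± 32.1 FPKM in Ceapin-A7) had adjusted p-values of 0.0994 and 0.0809 in limma and did not pass.

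In complex V, the called members covered the catalytic head, the rotor and the stalk. Atp5b measured 639, 694, 682, 688 and 686 FPKM in Ceapin-A7, and the tunicamycin values given above lay below these except in library 5, which passed the lowest Ceapin-A7 library, with a log2 change of -0.22 ± 0.06 and an adjusted p of 0.0244 (limma). Atp5a1, the alpha subunit, averaged 268.7 FPKM in tunicamycin (249 to 286) and 295.8 FPKM in Ceapin-A7 (277 to 304). Atp5g3, which encodes the ring-forming subunit c, measured 257, 311, 442, 369 and 400.0 FPKM in tunicamycin, against 424, 469, 488, 443 and 426 FPKM in Ceapin-A7. Tunicamycin library 3 alone reached the Ceapin-A7 range, and the log2 change was -0.36 ± 0.10 with an adjusted p of 0.021 (limma). Atp5e, the epsilon subunit of the rotor stalk, averaged 182 ± 35.4 FPKM in tunicamycin and 226 ± 15.2 FPKM in Ceapin-A7, and Atp5h, subunit d of the outer stalk, 254 ± 46.5 FPKM in tunicamycin and 305 ± 14.9 FPKM in Ceapin-A7. Atp5k, subunit e of the membrane part, averaged 333 ± 82.7 FPKM in tunicamycin and 425 ± 45.1 FPKM in Ceapin-A7 and did not pass, with an adjusted p of 0.0504 (limma).

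The count of 22 changed with the libraries and groups fitted. Leaving out tunicamycin library 1 left 2 members (Ndufa9 and Ndufv1), leaving out library 3 gave 53, and leaving out both, a choice made after the values were seen, gave 25. Of the 13117 genes tested, these fits called 925, 2874 and 1471, against 1746 as reported. The member count was 7 and 12 without tunicamycin libraries 2 and 4, and 11, 8, 10 and 14 without Ceapin-A7 libraries 2, 3, 4 and 5. A fit to these groups alone called 2 members (Cox8b and Ndufv1) and 613 of all genes. Ndufv1 was called lower in all 21 alternatives run for this comparison, Ndufa9 in 20, Cox8b and Uqcrc1 in 19 and Ndufa5 in 18. The remaining 17 of the 22 were called in 8 to 17 of the 21. Rod markers differed in the same direction, with 3 of 14 called lower, 0 higher and a median log2 change of -0.26. Their summed level was 19890 to 25080 FPKM in tunicamycin, against 26870 to 29130 FPKM in Ceapin-A7. Other marker lists moved as well: 6 of 10 endothelial markers were lower and 2 higher (median -0.48), 5 of 10 pericyte and smooth muscle markers lower (-0.74), and 1 of 8 Muller glia (-0.29) and 1 of 7 pigment epithelium markers (-1.11) lower. All 10 lens markers lay above 0 (median 0.50) with 0 called. The part of these cell types in the result was not tested. For promoters, 4 of the 19 lower members with a matched promoter held the NRF1 letters and 9 of the 50 others did.

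Member transcripts are short, with a median of 645 bases over the 78 that matched the GENCODE annotation, against 2246 for genes tested. Genes under 1000 bases that were no members had median log2 changes of -0.02 in tunicamycin against Ceapin-A7 and 0.03 in Ceapin-A7 against vehicle set 2, where the 60 members under 1000 bases had -0.21 and 0.16. The 18 longer members had -0.17 and 0.16. The length of a gene is here the median over its annotated protein-coding transcripts, which can be far from its main transcript. Ndufs1, the largest core subunit, stood at 651 bases and the small subunit Ndufb2 at 2413. The split by length is therefore rough.

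Of the isoforms restricted to muscle and other tissues, Cox6a2 lay higher in tunicamycin than in Ceapin-A7 (log2 change 1.45 ± 0.51, adjusted p of 0.0604, limma), while Cox8b, Cox7a1 and Ndufa4l2 lay below 0 there, as most members did. Cox6a2, the heart and skeletal muscle form of subunit VIa, had 14.2, 4.40, 0.51, 6.27 and 3.74 FPKM in tunicamycin, against 0.65, 1.29, 0.83, 0.86 and 0.64 FPKM in vehicle set 2. All tunicamycin libraries but library 3 lay above vehicle, and the log2 change of 1.53 ± 0.51 had an adjusted p of 0.0621 (limma), 0.00659 without library 3 and 0.211 without library 1. At the median depth 1 FPKM of this gene stands for about 10.2 fragments. Cox6a2 was at 0.22, 0.11, 0.31, 11.2 and 0.31 FPKM in Ceapin-A7, where library 4 stood alone. In that library Acta1 and Ckm, skeletal muscle actin and creatine kinase, had 43.0 and 27.8 FPKM, and the 11 muscle markers summed to 281 FPKM, against 4.34 to 7.15 FPKM in the other 24 libraries. Tunicamycin libraries had muscle sums of 4.47 to 6.45 FPKM, within the 4.35 to 7.15 FPKM of vehicle set 2. Myh2 was at 0 in every library of tunicamycin and of both vehicle sets. The source of Cox6a2 in the tunicamycin libraries was not tested.

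Cox8b, the muscle and brown fat form of subunit VIII, had 2.96, 4.47, 8.15, 17.1 and 12.2 FPKM in tunicamycin, against 31.8, 25.5, 39.5, 25.8 and 15.4 FPKM in Ceapin-A7. Tunicamycin library 4 overlapped the lowest Ceapin-A7 library, and the log2 change was -1.67 ± 0.45 with an adjusted p of 0.0172 (limma) and 0.0683 without tunicamycin library 1. Against vehicle set 2, with 28.3, 10.1, 18.9, 16.5 and 11.7 FPKM, the log2 change of -0.98 ± 0.45 did not pass (adjusted p of 0.177, limma). One FPKM of this short transcript stands for about 2.60 fragments at the median depth, so its low values rest on few fragments. Cox8b levels in AA147 (2.39, 21.0, 7.76, 4.53 and 5.60 FPKM) and vehicle set 1 (6.38, 17.1, 4.61, 9.08 and 3.33 FPKM) overlapped.

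Cox7a1 averaged 6.15 ± 0.815 FPKM in tunicamycin, 9.33 ± 2.96 FPKM in Ceapin-A7 and 6.39 ± 1.58 FPKM in vehicle set 2, with Ceapin-A7 libraries 3 and 4 highest at 12.3 and 12.6 FPKM. No comparison between these groups passed for it. Ndufa4l2 averaged 3.62 ± 1.25 FPKM in tunicamycin and 3.90 ± 0.758 FPKM in vehicle set 2 (log2 change -0.11 ± 0.16), although 5 of the 10 pericyte and smooth muscle markers tested were called lower and 0 higher there. The summed level of the whole marker list was 300.2 to 423 FPKM in tunicamycin and 314 to 471 FPKM in vehicle set 2, with no marker at 0. Rgs5, a pericyte marker, had 4.55, 4.5, 6.62, 5.61 and 5.23 FPKM in tunicamycin, against 16.4, 18.3, 15.8, 16.8 and 20.8 FPKM in vehicle set 2.

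**Figure D5:**
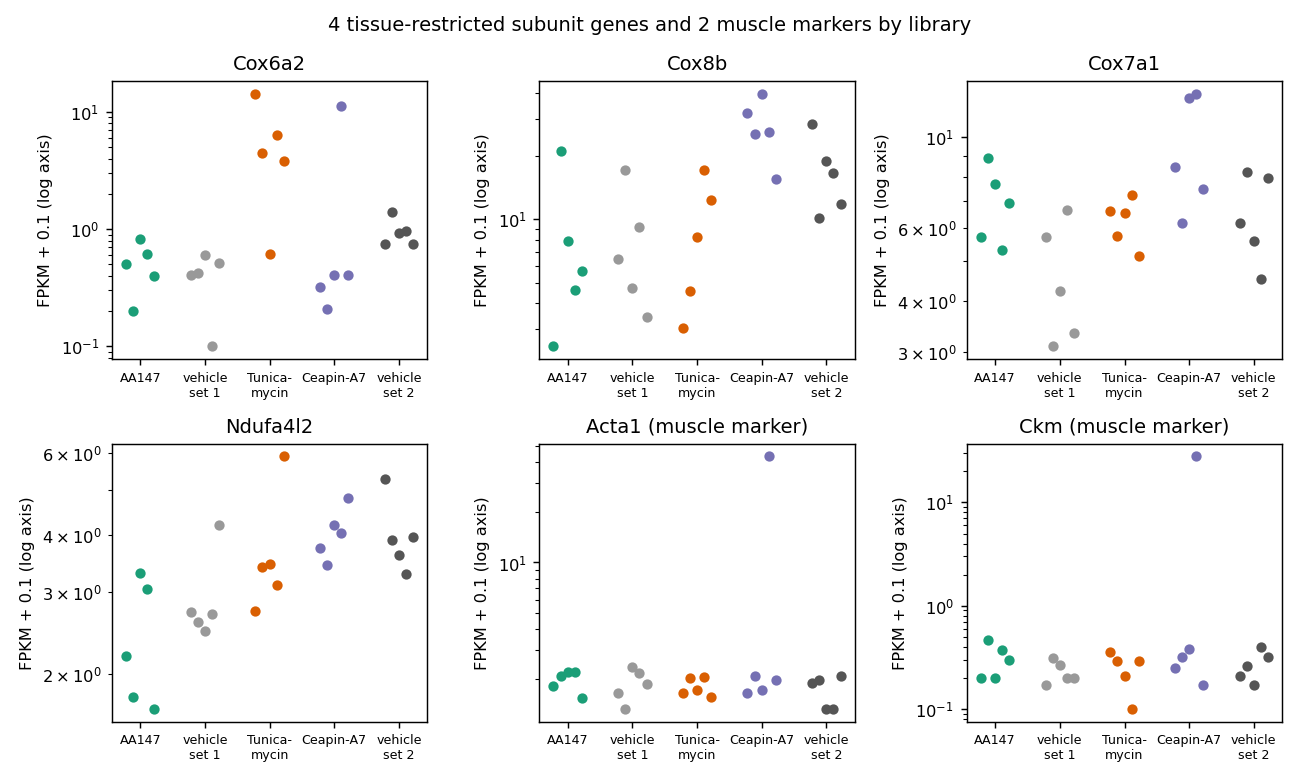
FPKM plus 0.1 (y axis, log scale) of 4 restricted members and 2 muscle markers in each library of the 5 groups (x axis). Cox6a2 is high in 4 tunicamycin libraries and in Ceapin-A7 library 4, and Acta1 and Ckm are high only in that Ceapin-A7 library among the 25.

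Few genes that build and serve the complexes passed the test. Of the subunits that the symbol rule left out, Cox4i1, the common form of subunit IV, had 355, 398, 564, 508 and 510 FPKM in tunicamycin, against 529, 555, 560, 554 and 562 FPKM in Ceapin-A7. Tunicamycin library 3 was the highest of these 10 and library 1 the lowest, and the gene was lower by the test (log2 change -0.26 ± 0.08, adjusted p of 0.0439, limma). Cox4i2, the lung and hypoxia form, Ndufab1, Cyc1 and Cycs (cytochrome c) were not called for any compound. Atpif1, the inhibitor of the ATP synthase, had 45.5, 51.7, 85.3, 69.0 and 66.1 FPKM in tunicamycin, against 73.2, 88.5, 79.2, 77.7 and 89.5 FPKM in Ceapin-A7, with a log2 change of -0.39 ± 0.11 and an adjusted p of 0.0275 (limma).

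Few assembly factors passed the test. Of all genes tested, 5.89% were higher and 2.81% lower in tunicamycin than in vehicle set 2. Against Ceapin-A7 the shares were 8.83% higher and 4.48% lower. Against vehicle set 2, tunicamycin had higher levels of 1 of 16 complex I factors (Foxred1, log2 change 0.12 ± 0.03), 1 of 5 complex V factors (Atpaf2, 0.21 ± 0.06) and 0 of the 4, 6 and 24 factors of complexes II, III and IV. Against Ceapin-A7, the complex IV factors Cox14, Cox17 (a copper chaperone) and Pet100 were lower, with log2 changes of -0.35, -0.37 and -0.45, and so was Sdhaf1, a complex II factor, at -0.24.

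Some mitochondrial chaperones and proteases were higher in tunicamycin retinas. The counts of this and the following lists stand beside the same shares of all genes tested, 5.89% higher and 2.81% lower against vehicle set 2. Against Ceapin-A7 these shares were 8.83% and 4.48%. Against vehicle set 2, 3 of 14 rose and 0 fell: Hspa9, the matrix HSP70 (log2 change 0.55 ± 0.11, adjusted p of 0.00356, limma), Lonp1, a matrix protease (0.28 ± 0.07), and Dnaja3, a partner of Hspa9 (0.26 ± 0.05). Against Ceapin-A7, 4 of 14 were higher, these 3 and Atf5, a transcription factor of the mitochondrial stress response (1.61 ± 0.32). Atf5 was not called against vehicle set 2, with log2 changes of 0.65 in tunicamycin and -0.96 in Ceapin-A7. Of 14 biogenesis genes, 0 were called against vehicle set 2. Against Ceapin-A7, Yy1 and Tfb1m were higher (0.15 and 0.29) and Esrra, an orphan nuclear receptor of energy genes, was lower (-0.21). Of 16 citric acid cycle genes, 3 were lower against Ceapin-A7, among them Idh3a (-0.14) and Sucla2 (-0.19), and 0 were called against vehicle set 2. Of 7 tested carriers and porins, Vdac3 was higher against both (0.18 against vehicle set 2 and 0.17 against Ceapin-A7). Slc25a5, an ADP/ATP carrier, was lower against Ceapin-A7 (-0.17). The 32 ribosomal proteins, another set of short and abundant transcripts, had median log2 changes of 0.05 in tunicamycin against vehicle set 2, 0.01 in tunicamycin against Ceapin-A7 and 0.05 in Ceapin-A7 against vehicle set 2. For AA147 and Ceapin-A7 against their vehicles, 0 genes were called in any of these lists, in the ER stress list or in any cell type marker list.

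The vehicle sets differed from each other more than any compound differed from its vehicle. Of the 83 members, 39 were called between vehicle set 2 and vehicle set 1, 32 higher and 7 lower in vehicle set 2, where 46.8% of genes tested were called (26.3% higher and 20.5% lower). The share of members called, 47%, was near that background. At an unadjusted p under 0.05, 38 were higher and 9 lower, against 29.6% and 23.2% of genes tested. The median log2 change was 0.15, against 0.03 for all genes tested. Complex IV had 8 of 14 higher and 0 lower with a median of 0.37, complex V 6 of 17 higher and 0 lower, and complex I 14 of 40 higher and 5 lower. Both sets carry the same labels, and the difference may not be read as a treatment.

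Among the called members the largest differences were in small accessory subunits of complex I, while Cox8b, at 1.09 ± 0.45, did not pass (adjusted p of 0.0512, limma). Ndufb2 had 66.2, 77.1, 74.0, 66.9 and 55.0 FPKM in vehicle set 2, against 38.1, 31.9, 36.5, 38.0 and 33.0 FPKM in vehicle set 1. The sets did not overlap, and the log2 difference was 0.91 ± 0.11 with an adjusted p of 4.61e-07 (limma). Ndufb4c (0.96), Ndufa5 (0.77), Ndufc2 (0.72), Ndufb11 (0.70), Ndufc1 (0.70), Ndufb1 (0.69), Ndufa6 (0.59), Ndufb6 (0.51) and the core subunit Ndufv2 (0.51) were also higher, with Atp5j of complex V (0.62) and Cox6a1 of complex IV (0.53). Ndufa3, Ndufb7, Ndufs8, Ndufb3, Ndufa10, Uqcrc1 and Sdha were lower, by log2 differences of -0.48 to -0.18. The AA147 libraries lay with vehicle set 1 in these genes (Ndufb2 35.7 to 43.8 FPKM) and the Ceapin-A7 libraries with vehicle set 2 (72.2 to 83.5 FPKM).

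Whether tunicamycin and AA147 changed the members differently was asked as the difference of their changes, each against its own vehicle set. Of 83 members, 0 differed by the test, where 1.04% of genes tested did (0.64% higher and 0.396% lower). At an unadjusted p under 0.05, 2 members were lower and 0 higher, against 6.72% and 8.81% of genes tested. The median difference was -0.05, against 0.00 for all genes tested. Cox6a1 and Ndufa6 had the smallest p, with differences of -0.24 ± 0.11 and -0.21 ± 0.10 and adjusted p-values of 0.285 and 0.297 (limma).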

How the data were processed

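Strand-specific mRNA libraries were made from retinal RNA, per the labels' protocols. The deposited values are FPKM per gene, per the file headers, in 5 tables of 5 libraries. Per the submitters' processing notes, GRCm39, DESeq2 1.4.5, RSEM 1.2.18 and HISAT2 2.0.4 were used, their roles not being stated. FPKM scales each library to its own total, so a few very abundant genes can shift all others. Depth was not given; the estimate assumes fragments of 250 bases and limits precision for low genes only. Genes in all 5 tables (18440) with FPKM of at least 1 in at least 5 of 25 libraries were kept (13117). Values were taken as log2(FPKM + 1), on which the change of low genes is understated, and tested with limma 3.58.1 in R 4.3.3 (moderated linear model with intensity trend, all 5 groups in 1 fit, two-sided, Benjamini-Hochberg over all genes tested, threshold 0.05). Code was tested on simulated data. No library pair had identical values. Group sums were made in Python 3.11.15.

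The members and gene lists were chosen with earlier results of these data known. Named are all called members up to 12 per comparison, beyond that the 12 with the largest change, the 2 smallest p where none was called, fixed subunits of each complex, and up to 3 called genes per related list; other names were chosen after their values were seen. Alternatives were another pseudocount, no filter and a stricter filter, other scalings, narrower sets of groups or genes, no trend, library weights, a replicate block, the mean of both vehicle sets, and leaving out single libraries. Values of a few genes are not reported here.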

Additional observations from a re-analysis of the deposited data

Results flagged for a closer look

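Among 220 groups of 5 libraries examined (44 levels of named members and complexes), 13 held a library far from the other 4 by Dixon's criterion (5.91%), and chance alone flags about 1 in 20. The plainest was Cox6a2 in Ceapin-A7 library 4, with 11.16 FPKM against 0.11 to 0.31 FPKM in the other 4, the library that also held the muscle markers. Cox8b in AA147 library 2 had 20.96 FPKM against 2.39 to 7.76 FPKM in the others.

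AA147 library 3 was the highest of its group for Atp5a1 (326.9 FPKM, others 289.8 to 295.9), Ndufv1 (118.2 FPKM, others 108.6 to 110.8) and Uqcrc1 (154.5 FPKM, others 119.7 to 126.8). Ceapin-A7 library 1 was the lowest of its group for Atp5a1 (276.6 FPKM, others 298.4 to 303.9) and Atp5b (638.6 FPKM, others 681.5 to 693.7). Ceapin-A7 library 3 was the highest for Ndufa9 (87.52 FPKM, others 79.06 to 80.4) and Ndufb6 (99.28 FPKM, others 80.54 to 83.65). Tunicamycin library 3 was the highest for Ndufv2 (72.48 FPKM, others 51.27 to 56.97), and tunicamycin library 5 for Ndufa4l2 (5.8 FPKM, others 2.64 to 3.36). In vehicle set 1, library 5 was the highest for Ndufa4l2 (4.09 FPKM, others 2.38 to 2.62) and library 4 for the sum of complex II (342.7 FPKM, others 323.8 to 327.7).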

How the results depend on the processing

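With the mean of both vehicle sets in place of the matched set, 16 members were called for AA147 (1 higher and 15 lower). For Ceapin-A7 46 were called (all higher) and for tunicamycin 30 (23 higher and 7 lower). Of the 13117 genes tested, 2948 were called for AA147 (1377 higher and 1571 lower) in that fit. For Ceapin-A7 4384 genes were called (2430 higher and 1954 lower) and for tunicamycin 5743 (3474 higher and 2269 lower). Ndufa6 turned from 0.13 to -0.16 for AA147. Both vehicle sets differ from each other in 39 members. For tunicamycin against Ceapin-A7, 22 members and 1746 of all genes as reported, a fit to only these groups called 2 members and 613 genes. A fit to the genes listed for them called 4 members and 703 genes. Leaving out single libraries gave 2 to 53 members and 925 to 2874 genes. The member counts were 7 and 12 without tunicamycin libraries 2 and 4 and 11, 8, 10 and 14 without Ceapin-A7 libraries 2 to 5. For tunicamycin against vehicle set 2, leaving out single libraries gave 0 to 4 members and 611 to 1985 of all genes. Without tunicamycin libraries 1 and 3 together, chosen after seeing the data, 1 member and 883 of all genes were called. Over all genes, that comparison called 1141 as reported, 389 on the genes of its own tables and 86 on its own groups. For vehicle set 2 against vehicle set 1, leaving out single libraries gave 38 to 43 members and 5721 to 6012 of all genes. AA147 and Ceapin-A7 against their own vehicle, and the tunicamycin change minus the AA147 change, gave 0 members under every other alternative run. Of all genes, these alternatives called 0 to 1 for AA147 and 0 to 14 for Ceapin-A7. For the tunicamycin change minus the AA147 change they called 67 to 637. The cause of these shifts was not tested. With a replicate block the member counts were 0 for each compound against its vehicle, 25 for tunicamycin against Ceapin-A7, 40 between the vehicle sets and 0 for tunicamycin against AA147. Over all genes, that fit called 1115 for tunicamycin against vehicle set 2, 1727 for tunicamycin against Ceapin-A7 and 6119 between the vehicle sets. Deviations of same-numbered libraries correlated at -0.434 to 0.47. No label pairs the libraries, and these values of both signs cannot decide whether equal numbers mark a pair. Low members such as Cox8b and Ndufb4b are limited by depth.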
